A study of Homo sapiens with 21 samples.

Results

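The EGF family ligands are the growth factors that bind the ErbB receptor tyrosine kinases, and their genes were followed for 8 h in MCF10A cells given epidermal growth factor (EGF). The 8 genes were EGF, TGFA, HBEGF, AREG, EREG, BTC, EPGN and NRG1, and a gene was read from the array probesets whose annotation named that gene and no other. Of the 8, 7 had such probesets, 123 in all, of which 91 passed a filter on low signal, and those 7 stood among 16614 genes tested. No probeset carried AREG (amphiregulin) as its only symbol in the platform annotation, so AREG was not analysed here. MCF10A is an immortalised, non-tumorigenic line of human mammary epithelial cells. The compared groups were cells at 20, 40, 60, 120, 240 and 480 min after EGF at 20 ng/ml and untreated cells (0 min), with 3 arrays each, 21 in all. All of them, the untreated ones included, had first been plated in medium without EGF and then starved for 24 h at 1% horse serum, and the labels describe the 3 cultures per time as biological triplicates. The untreated arrays were all of 0 min, so EGF and the hours spent in culture or the handling cannot be told apart. In bulk RNA, fewer cells expressing a gene and less RNA per cell cannot be told apart either.

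Ligands of this family are made as membrane-anchored precursors. Proteases of the ADAM group cut many of them loose, and the freed domain can act on the cell that made it or on its neighbours. TGFA (transforming growth factor alpha), AREG, EPGN (epigen) and EGF bind the EGF receptor, HBEGF (heparin-binding EGF-like growth factor), EREG (epiregulin) and BTC (betacellulin) bind both that receptor and ERBB4, and NRG1 (neuregulin 1) binds ERBB3 and ERBB4. Several of the genes are known targets of the EGF receptor's own ERK signalling, so that a cell exposed to one ligand can make others.

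Of the 7 ligand genes, 4 rose after EGF and peaked in the order HBEGF at 60 min, EREG and TGFA at 120 min and NRG1 at 240 min. HBEGF reached 14.2-fold, EREG 5.68-fold, TGFA 4.85-fold and NRG1 2.43-fold of the untreated mean, on intensities to which 16 had been added. EPGN was lower at 480 min than in untreated cells, at 0.479-fold. EGF itself and BTC stood low among the tested genes by mean level, at the 20.4th and 31.4th percentile. As gene values in the main fit they passed no test at any time.

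The promoters of 4 of these genes are shown because the 4 differ in timing and, on chromosome 4, EPGN and EREG are adjacent protein-coding genes with unlike courses. Each is 300 bases from RefSeq on GRCh38.p14, from 250 bases before the annotated start to 50 after it, read 5′ to 3′ along the gene's strand. Capitals mark GGGCGG, the GC box bound by SP factors. They also mark TGACG, the core of the cyclic AMP response element, and the TATA box TATAAA. Each was searched on both strands, and overlapping matches are joined. HBEGF lies at chr5:140346554-140346853 on the minus strand, TGFA at chr2:70553777-70554076 on the minus strand, EREG at chr4:74364895-74365194 on the plus strand and EPGN at chr4:74308220-74308519 on the plus strand.
HBEGF: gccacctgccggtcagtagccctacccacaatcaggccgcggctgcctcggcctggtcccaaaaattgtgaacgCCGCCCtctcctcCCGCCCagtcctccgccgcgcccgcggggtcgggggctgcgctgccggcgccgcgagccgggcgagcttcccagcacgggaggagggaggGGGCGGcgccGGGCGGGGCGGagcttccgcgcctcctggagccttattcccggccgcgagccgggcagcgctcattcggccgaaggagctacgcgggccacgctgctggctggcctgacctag
TGFA: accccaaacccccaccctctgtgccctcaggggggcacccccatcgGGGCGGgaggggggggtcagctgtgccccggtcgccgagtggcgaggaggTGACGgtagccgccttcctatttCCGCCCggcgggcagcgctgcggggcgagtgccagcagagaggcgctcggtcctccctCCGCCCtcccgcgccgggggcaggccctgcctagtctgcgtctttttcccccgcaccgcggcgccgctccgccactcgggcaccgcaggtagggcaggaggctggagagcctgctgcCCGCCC
EREG: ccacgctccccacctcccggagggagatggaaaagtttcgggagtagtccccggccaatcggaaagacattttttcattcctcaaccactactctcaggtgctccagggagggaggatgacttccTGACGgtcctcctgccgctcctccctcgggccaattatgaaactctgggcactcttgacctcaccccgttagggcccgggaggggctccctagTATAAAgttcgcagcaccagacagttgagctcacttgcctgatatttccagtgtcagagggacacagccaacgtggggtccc
EPGN: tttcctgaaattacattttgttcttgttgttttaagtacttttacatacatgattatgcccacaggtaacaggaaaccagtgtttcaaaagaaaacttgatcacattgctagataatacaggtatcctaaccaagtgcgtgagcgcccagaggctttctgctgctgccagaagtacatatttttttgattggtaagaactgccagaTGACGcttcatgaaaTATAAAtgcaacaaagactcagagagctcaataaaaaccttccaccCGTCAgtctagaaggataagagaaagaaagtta

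The HBEGF window held 5 matches to GGGCGG, the TGFA window 4 and 1 TGACG, the EREG window 1 TGACG and the EPGN window 2. TATAAA stood 32 bases before the annotated start of EREG and 29 before that of EPGN, and in neither of the other windows. Across 35114 RefSeq promoter windows of the same length, 45% held GGGCGG, 24.6% held TGACG and 11.5% held TATAAA. None of the 4 windows held the AP-1 site TGANTCA, found in 7.71% of all windows. None held the full cyclic AMP response element TGACGTCA (in 1.85%) or a CArG box, the site of serum response factor (in 1.29%). These are matches of letters in short windows. The array's own build is not given in the sources used here, and the windows were not joined to its probesets. For TGFA another annotated start lies nearby. Its window is not shown and held no match to any of the motifs named here.

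Each probeset's intensity was taken as log2(intensity + 16), and each gene took the median of its kept probesets. The 21 arrays had median intensities of 20.44 to 20.56. Precision is limited by the 3 arrays at each time. The labels were checked on genes known to respond to EGF within minutes. FOS, a transcription factor gene of this kind, was higher by 4.31 at 20 min, and 7 of the 7 such genes measured were higher at that time. Of 7 basal mammary marker genes tested, all stood at or above the 97.5th percentile of genes by mean level, while 3 of 6 luminal, 2 of 5 fibroblast and 0 of 3 blood markers stood above the median gene.

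**Figure D1:**
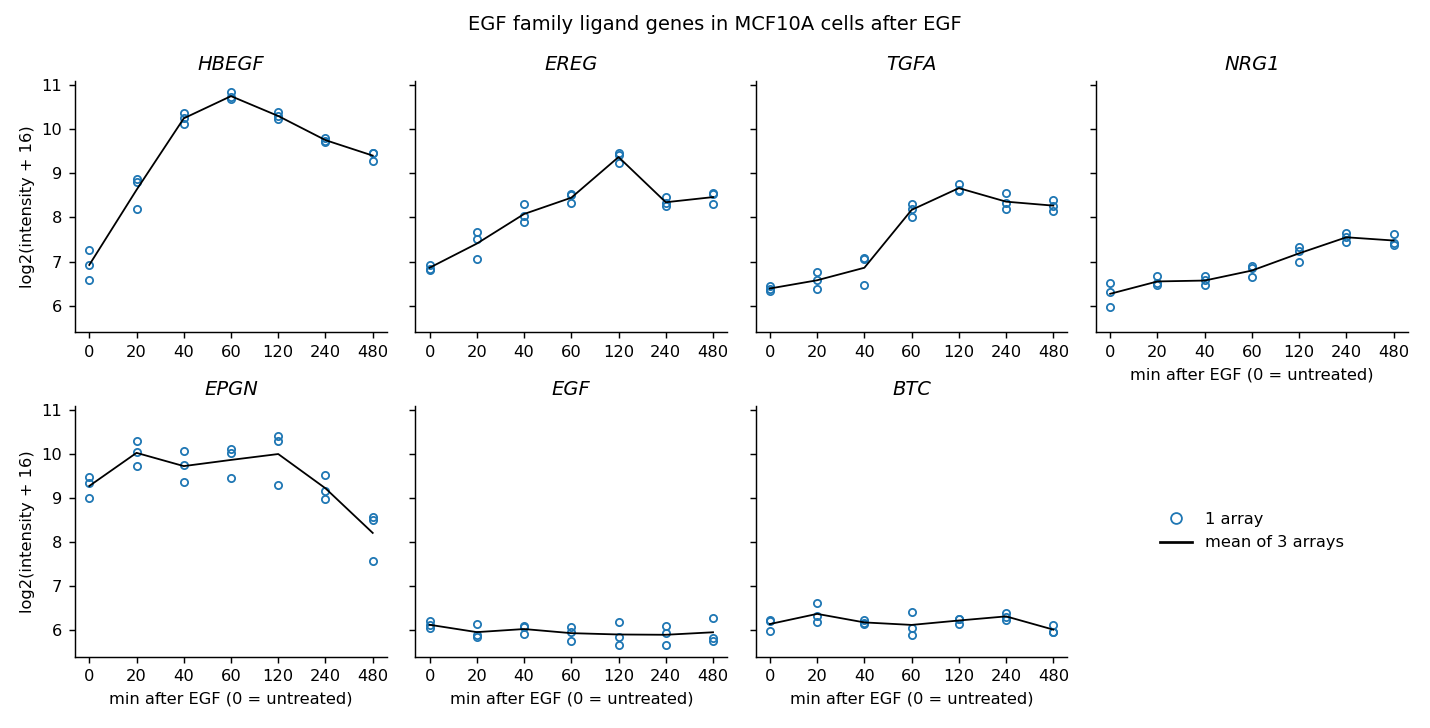
Log2(intensity + 16) of the 7 measured ligand genes at 0 (untreated), 20, 40, 60, 120, 240 and 480 min after EGF, times evenly spaced along the axis. Circles are single arrays and lines join the means of 3. HBEGF climbs to 10.69 to 10.83 at 60 min, while EGF and BTC stay between 5.66 and 6.61.

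HBEGF was the earliest and largest responder among the ligand genes. It read 6.58, 7.27 and 6.92 on the 3 untreated arrays, 8.81, 8.86 and 8.20 at 20 min, 10.37, 10.12 and 10.24 at 40 min and 10.83, 10.69 and 10.72 at 60 min. It then read 10.22, 10.29 and 10.38 at 120 min, 9.71, 9.74 and 9.80 at 240 min and 9.45, 9.28 and 9.47 at 480 min. Every array after EGF lay above every untreated array, and the arrays of 40 and 60 min lay above those of 20, 240 and 480 min. Against untreated, the log2 change was 1.70 at 20 min, 3.32 at 40 min, 3.83 at 60 min, 3.37 at 120 min, 2.83 at 240 min and 2.48 at 480 min, each with a limma standard error of 0.16. The Benjamini-Hochberg adjusted p in limma ran from 3.1e-07 at 20 min to 2.5e-13 at 60 min. In fold terms this was 3.25 at 20 min, 9.99 at 40 min, 14.2 at 60 min and 5.58 at 480 min.

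Between neighbouring times, HBEGF rose by 1.62 between 20 and 40 min (limma adjusted p = 2.5e-06). The later steps of 0.51 at 60 min, -0.45 at 120 min, -0.55 at 240 min and -0.35 at 480 min did not pass (limma adjusted p = 0.31, 0.14, 0.1 and 0.42). The decline showed over the longer span. The mean of 240 and 480 min was below that of 40 and 60 min by -0.92 ± 0.11 (limma, SE, adjusted p = 1.6e-06). At 480 min 64.8% of the highest log2 change was still present.

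EREG rose more slowly and had a sharp maximum at 120 min. It read 6.92, 6.84 and 6.82 on untreated arrays, 7.05, 7.66 and 7.51 at 20 min, 8.03, 7.89 and 8.31 at 40 min and 8.52, 8.50 and 8.32 at 60 min. The values were 9.42, 9.23 and 9.45 at 120 min, 8.32, 8.25 and 8.46 at 240 min and 8.52, 8.30 and 8.56 at 480 min. All arrays after EGF lay above all untreated ones, and the 3 arrays of 120 min lay above every other array. The log2 change was 0.55 at 20 min (limma adjusted p = 0.06), 1.22 at 40 min, 1.59 at 60 min, 2.51 at 120 min, 1.48 at 240 min and 1.60 at 480 min, with a standard error of 0.14. From 40 min on, each passed, with limma adjusted p between 3.7e-06 at 40 min and 2.9e-11 at 120 min.

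The steps that bounded the EREG maximum both passed. Its value at 120 min was higher than at 60 min by 0.92 (limma adjusted p = 0.00024), and its value at 240 min was lower than at 120 min by -1.02 (limma adjusted p = 0.00015). EREG was the only 1 of the 7 ligand genes to fall between 120 and 240 min under that test. The step of 0.12 between 240 and 480 min did not pass (limma adjusted p = 0.86), so the values at these 2 times were not ordered. The step of 0.67 between 20 and 40 min passed (limma adjusted p = 0.018), but not without EGF 20 min replicate 1 (adjusted p = 0.17), EGF 40 min replicate 1 (0.053) or EGF 40 min replicate 3 (0.18). Without EGF 20 min replicate 1, the lowest array of that time, the change at 20 min itself was 0.72 and passed (limma adjusted p = 0.0056).

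TGFA, as the median of its kept probesets, was not called up to 40 min and had its largest step between 40 and 60 min. It read 6.33, 6.45 and 6.39 on untreated arrays, 6.59, 6.77 and 6.37 at 20 min, 7.07, 6.46 and 7.05 at 40 min and 8.20, 8.01 and 8.30 at 60 min. Later it read 8.63, 8.76 and 8.60 at 120 min, 8.33, 8.19 and 8.55 at 240 min and 8.40, 8.25 and 8.15 at 480 min. The arrays up to 40 min and those from 60 min on did not overlap. Against untreated, the log2 change was 0.19 at 20 min and 0.47 at 40 min, neither of which passed (limma adjusted p = 0.49 and 0.11). It was 1.78 at 60 min, 2.28 at 120 min, 1.97 at 240 min and 1.88 at 480 min, with a standard error of 0.15 and limma adjusted p between 1.7e-08 and 2.4e-10.

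For TGFA the step from 40 to 60 min was 1.31 (limma adjusted p = 4.7e-05). The steps of 0.50 at 120 min, -0.31 at 240 min and -0.09 at 480 min did not pass (limma adjusted p = 0.064, 0.52 and 0.91). The call at 40 min depended on 1 array and on how probesets were summarised. EGF 40 min replicate 2 read 6.46 and the other two 7.07 and 7.05, and without it the change was 0.67 (limma adjusted p = 0.007). With all arrays, TGFA at 40 min also passed with the mean of its probesets (0.62, adjusted p = 0.0035) and with a filter at the 75th percentile (0.90, adjusted p = 0.00012). With that filter the step from 20 to 40 min passed as well (0.63, limma adjusted p = 0.016).

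NRG1 rose last and least of the 4. It read 5.98, 6.32 and 6.51 on untreated arrays, 6.52, 6.67 and 6.46 at 20 min, 6.67, 6.46 and 6.58 at 40 min and 6.90, 6.64 and 6.85 at 60 min. The values were 6.98, 7.25 and 7.33 at 120 min, 7.65, 7.55 and 7.45 at 240 min and 7.43, 7.37 and 7.63 at 480 min. The untreated arrays overlapped those of 20 and 40 min and lay below all arrays from 60 min on. The log2 change was 0.52 at 60 min, 0.91 at 120 min, 1.28 at 240 min and 1.20 at 480 min, with a standard error of 0.13 and limma adjusted p of 0.019, 3.4e-05, 3.1e-07 and 6.2e-07. The changes of 0.28 at 20 min and 0.30 at 40 min did not pass (limma adjusted p = 0.24 and 0.36). No step between neighbouring times passed, and the 60 min call was lost without untreated replicate 1, the lowest array (0.38, limma adjusted p = 0.13), and without EGF 60 min replicate 1 (0.47, adjusted p = 0.09) or EGF 60 min replicate 3 (0.49, adjusted p = 0.088).

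EPGN had high values at all times and was the ligand gene that ended below its untreated level. It read 8.99, 9.34 and 9.48 on untreated arrays, 10.05, 10.29 and 9.72 at 20 min, 10.07, 9.35 and 9.74 at 40 min and 10.10, 9.46 and 10.02 at 60 min. It read 9.30, 10.28 and 10.40 at 120 min, 8.98, 9.16 and 9.51 at 240 min and 8.49, 7.56 and 8.57 at 480 min. All 3 arrays of 480 min lay below the lowest untreated array. At 20 min all 3 lay above the highest untreated array, while 40, 60 and 120 min overlapped with untreated. The log2 change was 0.75 at 20 min, 0.45 at 40 min, 0.59 at 60 min, 0.72 at 120 min and -0.05 at 240 min, none of which passed (limma adjusted p = 0.17, 0.57, 0.24, 0.091 and 0.92), and it was -1.06 at 480 min (adjusted p = 0.008), with a standard error of 0.28.

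The fall of EPGN was also tested without the untreated arrays. Its mean at 240 and 480 min was below that at 40 and 60 min by -1.08 ± 0.20 (limma, SE, adjusted p = 0.00028). At 480 min a single array, EGF 480 min replicate 2 at 7.56, weighed on the comparison with untreated: without it the change was -0.74 (limma adjusted p = 0.057). The earlier values of EPGN, above untreated but not called, were called under other settings. Without EGF 120 min replicate 1, at 9.30 the lowest of its time, the change at 120 min was 1.07 and passed (limma adjusted p = 0.0072). It also passed there with a filter at the 75th percentile (0.85, adjusted p = 0.0076) and, as at 60 min, with the mean of probesets (0.81 and 0.96, adjusted p = 0.011 and 0.0073 at 120 and 60 min) and without the array of each time farthest in the index described next (0.93 and 0.65, adjusted p = 0.00072 and 0.019).

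The spread of EPGN between arrays of a time moved with a property of the arrays. For each array an index was taken as the median log2 value of the single-gene probesets minus that of the probesets the annotation leaves unnamed. The index averaged 1.31, 1.27, 1.31, 1.32, 1.30 and 1.31 at 20, 40, 60, 120, 240 and 480 min and 1.24 in untreated cells, so it was also lowest in the untreated group. In each of the 7 times, the array with the lowest index had the lowest EPGN value, and in 6 of 7 times the array with the highest index had the highest. The lowest-index array also had the lowest HBEGF value in 7 of 7 times and the lowest NRG1 value in 6 of 7. The slope within times was 0.70 log2 units of EPGN per 0.1 of index, against 0.20 for HBEGF, 0.19 for NRG1, 0.13 for TGFA, 0.06 for EREG, 0.05 for BTC and -0.24 for EGF. With the index as a covariate, EPGN's change was -1.56 at 480 min (limma adjusted p = 1.2e-08) and -0.49 at 240 min (adjusted p = 0.0094), and between 0.06 and 0.22 at the 4 earlier times. The part of the index in these results beyond that fit was not tested.

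**Figure D2:**
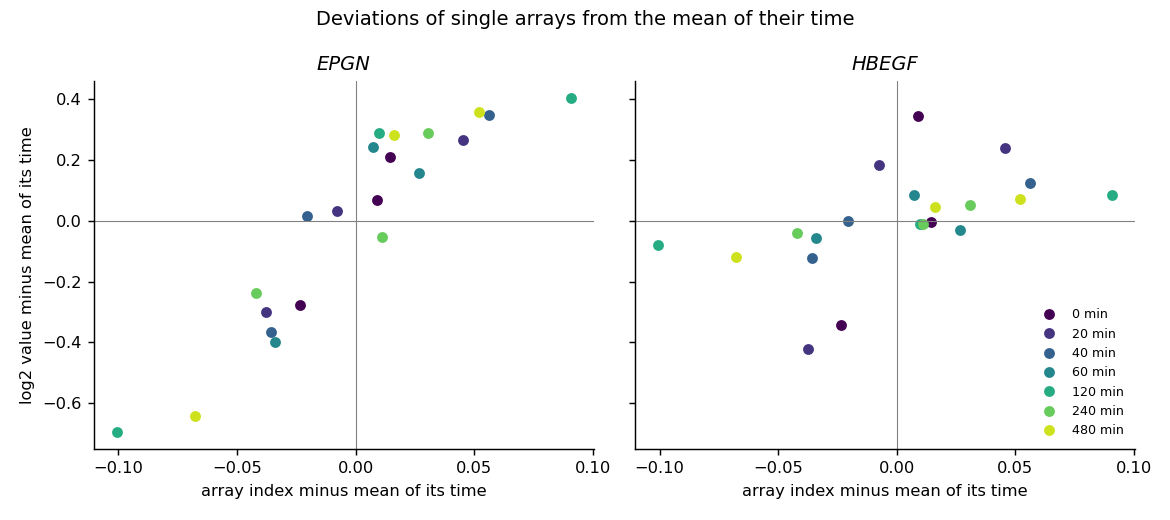
Deviation of each of 21 arrays from the mean of its time, in the array index (x axis, log2 units) and in the gene's log2(intensity + 16) value (y axis), for EPGN and HBEGF, coloured by time. EPGN values run along a line with a slope of 0.70 per 0.1 of index, and HBEGF values are more scattered, with a slope of 0.20.

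EGF and BTC passed at none of the 6 times. EGF ranged from 5.66 to 6.28 over the 21 arrays and BTC from 5.90 to 6.61, against a filter threshold of 5.18. The untreated arrays read 6.21, 6.12 and 6.05 for EGF and 5.98, 6.24 and 6.21 for BTC. The log2 changes of EGF lay between -0.23 and -0.10, with limma adjusted p from 0.33 to 0.86 and 95% intervals within -0.54 and 0.22. Those of BTC lay between -0.13 and 0.23, with adjusted p from 0.31 to 0.95 and intervals within -0.39 and 0.49. Changes larger than these bounds were thus outside the intervals on this scale, which compresses the changes of dim genes. Of the 33 EGF probesets only 12 passed the filter, and of the 10 BTC probesets 6 did.

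Counted over the ligand genes, HBEGF alone of 7 was higher at 20 min, when 0.897% of all 16614 genes were called higher. HBEGF and EREG were called higher at 40 min (all genes 1.82%). At 60, 120, 240 and 480 min the same 4 of 7, HBEGF, EREG, TGFA and NRG1, were called higher, against 4.82%, 11.2%, 13.5% and 15.5% of all genes. At 480 min EPGN was the 1 called lower (all genes 7.11%). The median log2 change over the 7 was 0.28, 0.45, 0.59, 0.91, 1.28 and 1.20 at 20, 40, 60, 120, 240 and 480 min, beside 0.02, 0.02, 0.03, 0.04, 0.02 and 0.05 over all genes. Over the whole course, limma's F-test called 5 of 7 against 27.5% of all genes, with adjusted p of 6.5e-13 for HBEGF, 2.4e-11 for TGFA, 1.7e-10 for EREG, 1.9e-07 for NRG1 and 0.00023 for EPGN. It did not call BTC (adjusted p = 0.28) or EGF (0.82).

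Between neighbouring times, 2 of 7 ligand genes rose from 20 to 40 min (HBEGF and EREG), when 0.482% of all genes did. From 40 to 60 min TGFA rose (all genes 0.156%), and from 60 to 120 min EREG rose (all genes 2.18%). From 120 to 240 min EREG fell (all genes 1.1%), and from 240 to 480 min none of 7 passed, when 1.47% of all genes did. The last count in limma was of adjusted values, and EPGN, with -1.01, had an adjusted p of 0.082. Between sampled times, HBEGF thus had its largest step before 40 min, TGFA between 40 and 60 min and EREG around 120 min. These intervals differ in length, so the steps are not rates. The EREG rise of 0.92 from 60 to 120 min took a longer interval than its 0.67 from 20 to 40 min.

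The order of induction was described by the time at which a gene's mean, joined by straight lines between sampled times, passed 50% of its highest log2 change. HBEGF passed it at 22.6 min, EREG at 42 min, TGFA at 50.2 min and NRG1 at 78.1 min. Leaving out each array in turn, these times ranged from 20 to 23.8 min for HBEGF, 38.6 to 46.3 min for EREG, 48.4 to 50.9 min for TGFA and 67.6 to 89.2 min for NRG1, so the ranges did not overlap. The time of the highest mean did not move for any of the 4 when single arrays were left out. All these times are from the main gene values. The TGFA change at 40 min, 0.47 here, was 0.62 with the mean of probesets and 0.90 with the filter at the 75th percentile. Times under those settings were not computed. EREG and TGFA shared their maximum at 120 min but reached it differently. At 40 min EREG had 48.5% of its highest change and TGFA 20.8%, and at 60 min the shares were 63.3% for EREG and 78.1% for TGFA.

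**Figure D3:**
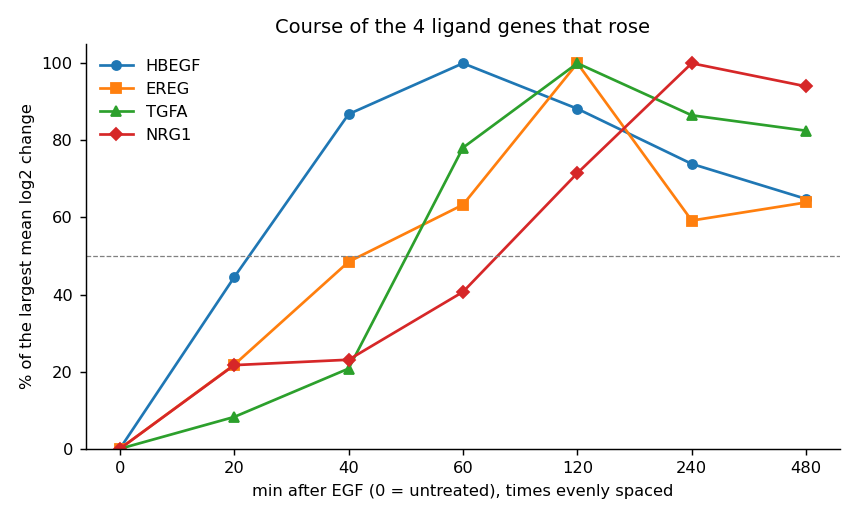
Mean log2 change against untreated of HBEGF, EREG, TGFA and NRG1 at each time (3 arrays each), as a percent of that gene's highest mean change, with times evenly spaced on the x axis. The dashed line marks 50%, which HBEGF crosses first and NRG1 last.

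The share of the highest change left at 480 min set the same genes in another order. It is not a measure of duration alone, because the genes peaked at different times. The highest mean was at 60 min for HBEGF, 120 min for EREG and TGFA and 240 min for NRG1. At 480 min NRG1 kept 94% of its highest log2 change (88.1% to 98.1% with single arrays left out) and TGFA 82.5% (79.6% to 85.1%). HBEGF kept 64.8% (63.1% to 66.3%) and EREG 63.9% (61.9% to 67.1%). For late against early EGF times, the mean of 240 and 480 min minus that of 40 and 60 min, 2 of 7 ligand genes were higher and 2 lower, beside 14% and 10% of all genes. NRG1 was higher by 0.83 ± 0.09 (limma, SE, adjusted p = 5.1e-07) and TGFA by 0.80 ± 0.10 (adjusted p = 4e-06). Neither was called against untreated at 40 min, so this contrast also counts their late onset. HBEGF and EPGN were the lower pair, with the values given above. EREG, whose maximum falls between the compared times, differed by 0.14 ± 0.10 (adjusted p = 0.33), EGF by -0.06 (0.76) and BTC by 0.01 (0.94).

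Whether HBEGF and another ligand gene kept their distance was tested within arrays. HBEGF minus TGFA was 1.26 ± 0.20 on the 6 arrays of 240 and 480 min and 2.98 ± 0.47 on the 6 of 40 and 60 min (SD). The late values ran from 1.03 to 1.55 and the early ones from 2.42 to 3.66, without overlap. HBEGF minus EREG was 1.17 ± 0.26 late and 2.23 ± 0.17 early (SD), from 0.91 to 1.49 against 1.93 to 2.40. The differences, -1.72 for TGFA and -1.06 for EREG, each had p = 0.0022 in a two-sided exact permutation test over 924 splits, the smallest p that these splits allow, and 0.0022 after Benjamini-Hochberg adjustment over the pairs run. These differences combine the late minus early changes of single genes given above, on the same arrays, and add no separate evidence. EREG itself differed by 0.14, so its pair mostly repeats the fall of HBEGF. The test also pooled arrays of 40 and 60 min as alike, although TGFA rose between these times. The planned comparison with AREG could not be made.

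**Figure D4:**
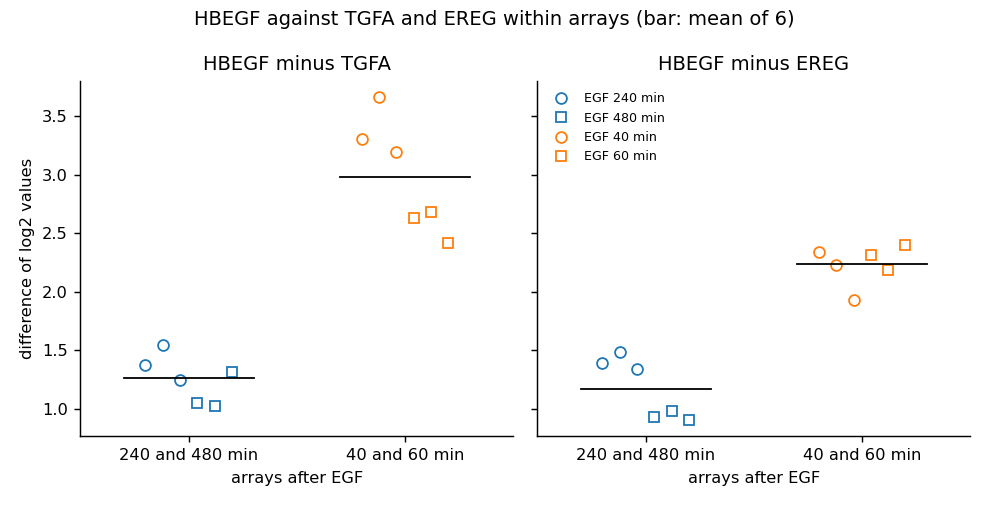
Difference of log2(intensity + 16) values within each array, HBEGF minus TGFA and HBEGF minus EREG, for arrays of 240 and 480 min (left in each panel) and of 40 and 60 min (right), with bars at the mean of 6. The late arrays lie below the early ones in both panels, at 1.03 to 1.55 against 2.42 to 3.66 for TGFA.

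Single probesets, each fitted as its own feature among 261183, showed how uniform the gene values were. All 8 HBEGF probesets were higher at each of the 6 times, from 1.1 to 1.99 at 20 min and from 2.46 to 4.42 at 60 min. Over all probesets, 0.445%, 1.1%, 2.94%, 7.38%, 9.07% and 10.5% were called higher at 20, 40, 60, 120, 240 and 480 min. All 8 HBEGF probesets were also lower late than early, by -1.05 to -0.72 (all probesets 8.27% lower). For EREG 4, 6, 6, 7, 5 and 5 of 9 were higher at these times. The 3 EREG probesets with the lowest numbers changed least at 120 min. Of these, 2731515 and 2731516 were not called there (0.87 and 0.10), and 2731517 was called there (1.28, limma adjusted p = 2.2e-05) but not at 240 min. Of the other 6, 5 lay between 3.14 and 3.41 at 120 min, above the gene's median of 2.51.

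For TGFA 0, 4, 14, 14, 14 and 14 of 15 probesets were called higher at the 6 times. The exception from 60 min on was 2558710, at 0.09 at 60 min and -0.07 at 120 min. Of the 15, 3 (2558642, 2558645 and 2558646) were below the filter threshold in untreated cells and were kept through their values after EGF. The filter favoured calls of higher for these 3, which are no separate support. The 4 called at 40 min were TGFA probesets 2558649 (0.91, limma adjusted p = 0.00024), 2558650 (0.82, adjusted p = 0.017), 2558695 and 2558709. The intensities of 2558695 and 2558709 averaged 236 and 160 at 40 min against 102 and 64 in untreated cells, log2 changes of 1.14 and 1.16 (limma adjusted p = 0.00047 and 0.0028). At 60 min these 2 stood at 1.23 and 0.98, while 2558649 and 2558650 went on to 2.47 and 2.40. The other 11 probesets lay between 0.00 and 0.86 at 40 min without a call. Where these probesets lie in the gene is not given in the sources used here.

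For NRG1 0, 0, 3, 16, 19 and 16 of 32 probesets were called higher, and they were not spread evenly over the probeset numbers. The 11 kept probesets with the lowest numbers had no call higher at any time and a median change of 0.17 at 240 min. They included the brightest NRG1 probeset, 3092819, which averaged 3490 in intensity in untreated cells and 3350 at 240 min (-0.06, not called). The other 21 included all 19 called at 240 min, with a median of 1.33 there, 0.89 at 120 min and 1.20 at 480 min. The 19 averaged between 13.6 and 199 in intensity in untreated cells. Of the 32, 3 were below the filter threshold in untreated cells and were kept through their values after EGF, which favours calls of higher. One of the low-numbered set, 3092820, was called lower at 240 min (-2.12, limma adjusted p = 0.026), when 4.86% of all probesets were. The split was chosen after the values were seen and carries no test. The NRG1 gene value of 1.28 at 240 min was thus a median over probesets that rose and others that did not pass.

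**Figure D5:**
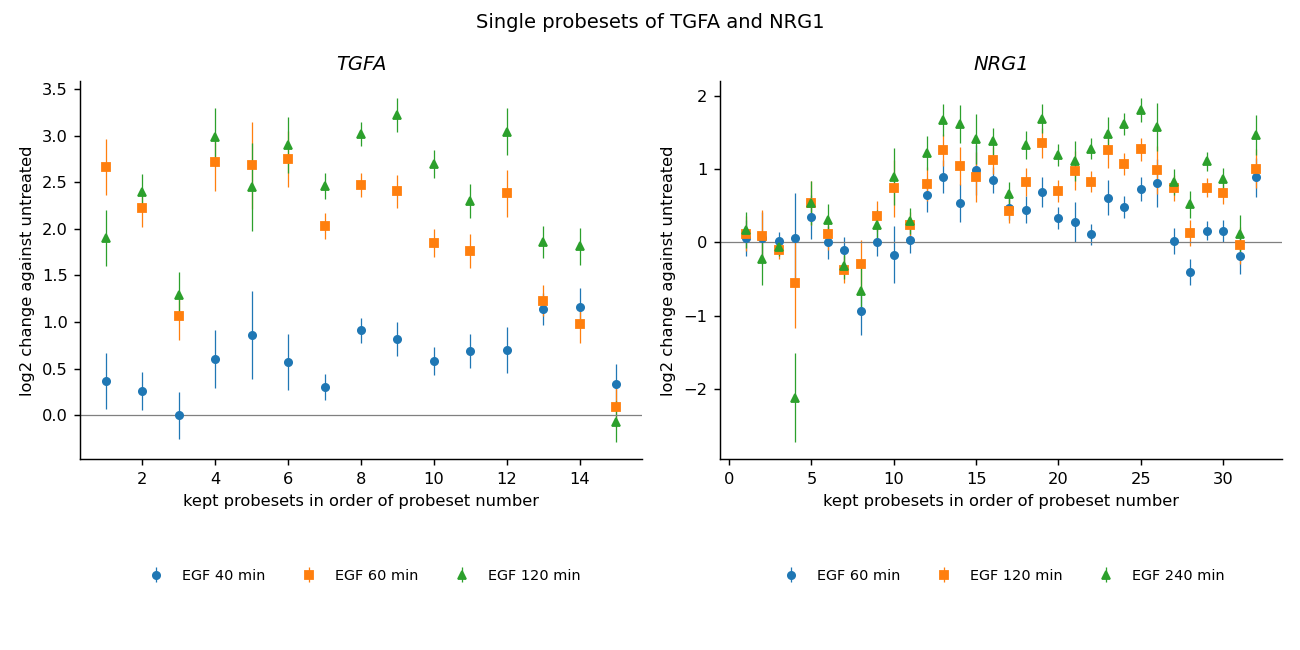
Log2 change against untreated of each kept probeset of TGFA (15, at 40, 60 and 120 min) and NRG1 (32, at 60, 120 and 240 min), in order of probeset number, with limma standard errors as bars. In TGFA the 13th and 14th probesets stand highest at 40 min, and in NRG1 none of the 11 on the left but 19 of the other 21 were called higher at 240 min.

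EPGN probesets differed in the size of their change, from 0.31 to 1.16 at 20 min and from -1.29 to 0.02 at 480 min against untreated. All 9 were lower at 240 and 480 min than at 40 and 60 min, by -2.19 to -0.87. At 480 min 5 of 9 were lower than untreated (all probesets 6.1%). Probeset 2731505, for instance, averaged 599 in intensity at 480 min against 1340 in untreated cells. At 60 and 120 min 3 and 6 of 9 were called higher although the gene median was not called. Probeset 2731498 averaged 1440 at 120 min against 727 in untreated cells. Another of those called, 2731497, averaged 110 at 120 min against 15.9 in untreated cells. It was below the filter threshold in untreated cells and was kept through its values after EGF, so the filter favoured its rise. Of the 12 EGF probesets 1 was called lower at 240 min and of the 6 BTC probesets 1 at 480 min (-0.64, limma adjusted p = 0.0049), and no other call was made for these genes.

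Genes that act on or with the ligands were followed in the same fit. The 4 receptors had no member higher at any time. ERBB3, the kinase-impaired receptor of neuregulins, was lower by -0.43 at 120 min, -0.48 at 240 min and -0.43 at 480 min, with limma adjusted p of 0.0063, 0.0019 and 0.004. Over all genes, 3.21%, 6.21% and 7.11% were called lower at these times. The call at 120 min was lost without the array of each time farthest in index (-0.35, limma adjusted p = 0.079). EGFR, the receptor of the added ligand, changed by -0.02 to 0.28 without passing (lowest adjusted p = 0.11). None of the 4 other neuregulin-type genes, NRG2, NRG3, NRG4 and CSPG5, passed. At 480 min the median change was -0.13 for the receptors and -0.10 for these 4, beside 0.05 over all genes. For the lists below, too, the background is the share of all genes called higher or lower at the same time.

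Of 21 genes for shedding and trafficking of ligand precursors, 0, 1, 2, 7, 7 and 5 were higher at 20, 40, 60, 120, 240 and 480 min. Among all genes, 0.897%, 1.82%, 4.82%, 11.2%, 13.5% and 15.5% were called higher at these times. The median change of the 21 was 0.19 at 120 min, 0.13 at 240 min and 0.19 at 480 min, beside 0.04, 0.02 and 0.05 over all genes. ADAM19, a membrane protease known to process neuregulin, was higher by 1.32 at 120 min, 1.62 at 240 min and 1.92 at 480 min, after 0.00 at 60 min. ADAM17, the main sheddase of HBEGF, TGFA and EREG, was higher by 0.59 at 60 min, 0.74 at 120 min and 0.45 at 240 min (limma adjusted p = 0.015, 0.00096 and 0.03). ADAM8 was higher from 40 min, by 0.53, to 480 min, by 1.21, but with a filter at the 75th percentile it was at 0.06 at 40 min and 0.14 at 60 min (limma adjusted p = 0.84 and 0.42), and with the mean of probesets at 0.26 at 40 min (adjusted p = 0.05), without passing. FURIN, a convertase that activates ADAM proteases, was higher by 0.49, 0.65 and 0.76 at 120, 240 and 480 min, and RHBDF2, which carries ADAM17 to the surface, by 0.37, 0.52 and 0.56. CNIH1, of the cornichon family of cargo receptors, was higher by 0.50, 0.62 and 0.61 at those times, and GORASP2, a Golgi stacking protein, by 0.50 and 0.46 at 120 and 240 min. GORASP2 did not pass limma's F-test over the course (adjusted p = 0.077) and was not run under the alternatives below. TIMP3, an inhibitor of ADAM17, was lower by -0.35 at 480 min (limma adjusted p = 0.032). Single arrays and the processing decided some of these calls. Without untreated replicate 1, ADAM17 at 60 and 240 min (0.46 and 0.31), RHBDF2 and FURIN at 120 min (0.38 and 0.42) and TIMP3 (-0.22) did not pass. Without EGF 120 min replicate 3, RHBDF2, FURIN and CNIH1 at 120 min did not (0.32, 0.36 and 0.37), and without untreated replicate 3 neither did RHBDF2 (0.31) and CNIH1 (0.34) then or ADAM17 at 240 min (0.43). The same held without untreated replicate 2 for CNIH1 (0.48), without EGF 120 min replicate 2 for RHBDF2 (0.32), without EGF 60 min replicate 3 for ADAM17 at 60 min (0.55), without EGF 240 min replicate 3 for ADAM17 at 240 min (0.33), and without EGF 480 min replicate 2 or 3 for TIMP3 (-0.35 and -0.30). The filter at the 75th percentile also ended the call of RHBDF2 at 120 min (0.19, limma adjusted p = 0.28), and median centring those of RHBDF2 (0.29, adjusted p = 0.053) and CNIH1 (0.41, adjusted p = 0.062) then. With the array index as a covariate, RHBDF2 (0.23, limma adjusted p = 0.16) and CNIH1 (0.42, adjusted p = 0.092) at 120 min did not pass. Nor did ADAM17 at 60 and 240 min with that covariate (0.42 and 0.31, limma adjusted p = 0.058 and 0.075). The calls of ADAM19 passed whichever array was left out.

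Of 10 genes listed here as receptor-level inhibitors, 1, 1, 2, 4, 4 and 3 were higher and 0, 0, 0, 2, 3 and 1 lower at the 6 times. Among all genes, 0.897%, 1.82%, 4.82%, 11.2%, 13.5% and 15.5% were called higher. At 120, 240 and 480 min, 3.21%, 6.21% and 7.11% of all genes were called lower. The median change of the 10 was 0.22, 0.27 and 0.25 at 120, 240 and 480 min, where all genes had 0.04, 0.02 and 0.05. ERRFI1, an inhibitor that binds the EGFR kinase domain, was higher by 0.87 at 20 min, 1.61 at 40 min, 1.91 at 60 min, 1.83 at 120 min, 0.73 at 240 min and 0.81 at 480 min. Like HBEGF it was highest at 60 min. SOCS4 was higher by 0.62, 0.93, 0.54 and 0.69 from 60 to 480 min, the ubiquitin ligase gene CBL by 0.44, 0.45 and 0.42 from 120 min, LRIG2 by 0.55 at 120 min and ZNRF3 by 0.39 at 240 min. CBLB, the close relative of CBL, was lower by -0.58, -1.19 and -1.10 at 120, 240 and 480 min. LRIG3, of a family of receptor-binding membrane proteins, was lower by -1.02 at 120 min and -0.39 at 240 min, and LRIG1 by -0.35 at 240 min. The calls of ERRFI1 and CBLB and that of LRIG3 at 120 min passed whichever array was left out. Those of SOCS4 at 60 and 240 min, CBL at 120 and 480 min, LRIG2, ZNRF3, LRIG1 and LRIG3 at 240 min were each lost without at least 1 untreated array. Without untreated replicate 1 the values were 0.48 and 0.40 for SOCS4 at 60 and 240 min, 0.51 for LRIG2 and -0.34 for LRIG3. Without untreated replicate 2 they were 0.41 and 0.39 for CBL at 120 and 480 min, 0.33 for ZNRF3 and -0.34 for LRIG1. The processing also ended some calls. With the array index as a covariate, LRIG2 was at 0.20 and CBL at 0.25 at 120 min (limma adjusted p = 0.25 and 0.13). With the filter at the 75th percentile, SOCS4 was at 0.31 and ZNRF3 at 0.27 at 240 min (adjusted p = 0.15 and 0.17). Other settings added calls, such as LRIG2 at 240 min with no filter (0.51, adjusted p = 0.028).

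The genes whose course was most like that of each ligand gene were found by Pearson correlation over the 21 arrays among 4569 other genes that passed the F-test. The arrays are shared and all these genes were chosen for changing with time, so the values are a description. For HBEGF they were EPHA2 (0.974), PLK3 (0.970) and IER3 (0.966). For EREG they were DUSP6 (0.953), LAMB3 (0.946) and CD274 (0.944), and for TGFA SPRY4 (0.974), PLA2G4E (0.965) and ZNF365 (0.956). NRG1 was most like TXNDC5 (0.973), NSUN2 (0.971) and ABLIM3 (0.969), and EPGN most like RBMS3 (0.943), TM4SF1 (0.936) and GBP2 (0.928). Among the ligand genes themselves, TGFA ran closest to EREG (0.88) and NRG1 (0.84), HBEGF to EREG (0.81), and EPGN had 0.05 with EREG, its neighbour on chromosome 4.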

How the data were processed

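RNA from 21 cultures was measured on exon arrays, 1 intensity per probeset and array. The deposited values are linear intensities, for which the submitters' processing notes name Affymetrix Expression Console 1.1 and PLIER. Settings, background correction and build are not given in the sources used. Medians of the deposited arrays were nearly equal. Probesets were named through the platform annotation, which paired 354600 of 1384231 probesets with 1 symbol and 14898 with several, and left 1014733 unnamed here.

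Intensities were taken as log2(intensity + 16), which understates changes of dim genes. Probesets whose 21-array mean fell below the overall probeset median (5.18 on this scale, 20.2 in intensity) were dropped. That mean included the EGF arrays, so a probeset dim in untreated cells could be kept through higher values after EGF. A gene took the median of its remaining single-gene probesets, at least 3. limma 3.58.1 (lmFit, eBayes) in R 4.3.3 with data.table (1.17.8) fitted 1 mean per time to all 16614 genes, with 14 residual and 7.08 prior degrees of freedom and a median replicate SD of 0.169. Tests were two-sided, with Benjamini-Hochberg adjustment within a contrast over all genes and calls at 0.05; a value after ± with limma is its standard error. The script was tested on simulated data. The members, gene lists and tests were chosen with earlier results of these data known. All members were named, and other genes when they belonged to a listed pathway group and passed at any time, or were among the 3 most correlated with a member. Alternatives were pseudocounts of 1 and 64, no filter, a stricter filter (75th percentile), probeset means, quantile normalisation, median centring, the replicate letter as a block, the array index as a covariate, leaving out each array, and, added after seeing the data, single probesets and leaving out 1 array per time.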

Additional observations from a re-analysis of the deposited data

How the results depend on the processing

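Under the 31 alternatives, no ligand gene's called change turned its direction. HBEGF at each EGF time, EREG and TGFA from 60 min on, NRG1 from 120 min on and EREG at 40 min passed under all 31, and so did the late minus early changes of HBEGF, TGFA, NRG1 and EPGN. EGF passed in 1 case, lower late than early by -0.26 without the array of each time farthest in index (adjusted p = 0.046), and BTC in none. Both exact tests of HBEGF against TGFA and EREG kept their direction and passed under the 29 alternatives that apply, between -1.83 and -1.52 for TGFA and between -1.13 and -1 for EREG.

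Counts of ligand genes moved by 1 or 2. With the mean of probesets, 2 were higher at 20 min (EREG at 0.50, adjusted p = 0.00054), 3 at 40 min with TGFA, 5 at 60 and 120 min with EPGN, 2 higher and 1 lower from 60 to 120 min, 3 lower from 120 to 240 min and 1 lower from 240 to 480 min, and EREG was higher late than early (0.18, adjusted p = 0.017). With the array index as a covariate, 1 was lower at 240 min, 3 higher and 1 lower from 60 to 120 min, 1 higher and 2 lower from 120 to 240 min and 1 lower from 240 to 480 min, and NRG1 at 60 min did not pass (0.37, adjusted p = 0.073). With a pseudocount of 64, 2 were higher from 60 to 120 min and 2 lower from 120 to 240 min. With the filter at the 75th percentile, 2 were lower from 120 to 240 min and 1 from 240 to 480 min. TGFA then passed at 40 min and for the step from 20 to 40 min. EPGN passed at 120 min and NRG1 at 60 min did not (0.40, adjusted p = 0.064). With median centring 1 was lower from 240 to 480 min. Without the array of each time farthest in index, a setting chosen after seeing the data, 5 were higher at 60 and 120 min with EPGN, 1 was higher from 20 to 40 min, 2 lower from 120 to 240 min and 1 lower from 240 to 480 min. The cause was not tested. Leaving out single arrays, the counts ranged from 1 to 2 higher at 20 min, 2 to 3 at 40 min, 3 to 4 at 60 min, 4 to 5 at 120 min, 1 to 2 higher from 20 to 40 min, 1 to 2 higher from 60 to 120 min, 1 to 2 lower from 120 to 240 min, 0 to 1 lower from 240 to 480 min and 0 to 1 lower at 480 min.

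With the replicate letter as a block, HBEGF at 60 min was 3.83 (adjusted p = 3.7e-12), no ligand call changed and 163 genes called at 20 min became 148. The letters were not shown to pair the arrays: deviations of same-letter arrays correlated from -0.541 to 0.565, and 11 of 21 arrays correlated best with their own letter. Over all genes, calls at 20 min ranged from 81 without EGF 20 min replicate 2 to 1176 without EGF 20 min replicate 3, against 163. Other background counts also moved by over 1.5 times without 1 array, to 454 against 963 at 60 min (EGF 60 min replicate 3), 1561 against 2395 at 120 min (EGF 120 min replicate 3) and 2185 against 3281 at 240 min (EGF 240 min replicate 3). Between neighbouring times they became 58 (EGF 40 min replicate 3) to 324 (EGF 20 min replicate 3) against 95 from 20 to 40 min, 12 against 38 from 40 to 60 min (EGF 60 min replicate 3), 383 against 579 from 60 to 120 min (EGF 120 min replicate 2), 124 against 256 from 120 to 240 min (EGF 240 min replicate 1) and 127 against 245 from 240 to 480 min (EGF 240 min replicate 2). Single arrays were not tested as outliers, and dim genes such as EGF and BTC are limited by signal over background. The comparison of HBEGF with AREG was not run.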
